A study of Mus musculus with 40 samples.

Results

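The endoplasmic reticulum (ER) folding and stress genes described here were 33 named genes, taken from a list by symbol and matched to the Ensembl identifiers of the count table through GENCODE M21 on GRCm38. They were 33 of the 55414 genes in the table, and all 33 held at least 10 counts over the 40 libraries and were tested together with 25210 genes in all. The list held 9 chaperones and co-chaperones, 5 protein disulfide isomerases, 2 lumenal stress proteins, 6 stress sensors and transcription factors, 6 genes of ER-associated degradation, 3 genes of collagen folding and 2 genes of translocation and vesicle export. These roles were assigned for this list, with Fkbp11 placed under collagen folding beside Serpinh1 and Fkbp10.

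Secreted and membrane proteins enter the ER unfolded, where chaperones such as BiP (Hspa5) bind them and disulfide isomerases join their cysteines. When folding demand exceeds capacity, the sensors IRE1 (Ern1), PERK (Eif2ak3) and ATF6 (Atf6) start the unfolded protein response: IRE1 splices Xbp1 mRNA into the message of an active transcription factor, ATF6 is cut in the Golgi to release another, and PERK slows translation and favours synthesis of ATF4. Genes of chaperones, isomerases and degradation factors are classical targets of ATF6 and XBP1. Activated cardiac fibroblasts secrete large amounts of collagen, whose folding needs the collagen chaperone HSP47 (Serpinh1), the prolyl isomerase FKBP65 (Fkbp10) and protein disulfide isomerase (P4hb).

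Cardiac fibroblasts were isolated from male C57BL/6J mice with floxed Map3k7 alleles (TAK1 fl/fl), the gene of the kinase TAK1, and were used at passage 1, so every library came from cells of this genotype. They received an adenovirus with LacZ (control) or with a codon-improved Cre recombinase (iCre, TAK1-deficient), each under the ubiquitous CMV promoter, and were then serum-starved and left without ligand (CTRL) or given bFGF at 20 ng/ml, TGFβ at 10 ng/ml, IL-1β at 15 ng/ml or TNFα at 10 ng/ml for 24 h before poly(A) RNA was sequenced. The 2 viruses and 5 ligand conditions made 10 groups of 4 replicates. The growth medium before starvation also held bFGF at 20 ng/ml in every group, and no library came from cells without virus.

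Total counts were 25360947 to 66160732 per library (median 36183962). Fibroblast markers were all detected (10 of 10, summed level 15350 to 69710 CPM, that is counts scaled to library size), whereas endothelial markers summed to 0.577 to 13.0 CPM (2 of 2), leukocyte and macrophage markers to 13.3 to 150.2 CPM (4 of 4), pericyte and smooth muscle markers to 71.7 to 1919 CPM (3 of 3) and cardiomyocyte markers to 0.326 to 110.3 CPM (2 of 3 tested). Plasma cell markers summed to 124 to 345 CPM (2 of 3 tested), nearly all of it Sdc1. The targeted gene Map3k7, whose reads come from all exons and not only the floxed exon, averaged 153 CPM in LacZ and 127.5 CPM in iCre CTRL libraries (log2 fold change −0.28, adjusted p = 0.137), and its log2 fold changes were −0.40 with bFGF (adjusted p = 0.351), −0.67 with TGFβ (adjusted p = 0.00088), −0.82 with IL-1β (adjusted p = 0.000274) and −0.71 with TNFα (adjusted p = 0.000829). Under a block for replicate number Map3k7 also passed in CTRL (adjusted p = 0.00393) and with bFGF (adjusted p = 0.000409). Where iCre was combined with TNFα, IL-1β or TGFβ (12 libraries), log2 CPM rose with the GC content of genes by 0.190 to 0.319 per 10 percentage points relative to all libraries, against −0.234 to 0 in the other 28 libraries. Replicate 4 libraries were the highest of their group in at least 8 of the 10 groups for 19 of the 33 ER genes. The same held for 3.58% of the 14175 genes that averaged at least 0.5 CPM. In bulk RNA, fewer cells of a type and less RNA per cell cannot be told apart.

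Classical targets of the unfolded protein response carry the ER stress response element (ERSE), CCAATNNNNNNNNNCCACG, or ERSE-II, ATTGGNCCACG, which ATF6 and XBP1 are known to bind, ATF6 together with NF-Y. RefSeq windows of 250 bases before to 50 bases after the transcription start (GRCm38.p6) were at hand for 27 of the 33 genes and not for Atf6, Creb3l1, Derl1, Fkbp10, Hyou1 and Manf. An ERSE on either strand lay in the window of 9 of the 27 genes (33.3%), against 37 of 27025 genes in the table (0.137%). ERSE-II lay in 2 of 27 (7.41%), against 0.0444% of all genes, and the short site CCACG, which both elements contain, in 22 of 27 (81.5%), against 35.5% of all genes. The shares of all genes include the listed genes. The list was drawn up from genes of ER folding and the unfolded protein response, so a higher share was built into the choice and is no test. The elements found are printed 5′ to 3′ in their own orientation, because the spread between replicates is described by them further on. The capitals mark the conserved letters of the CCAAT box (ATTGG in ERSE-II) and of the short site, and the name gives the distance of the first base of the element in the window from the start.
Calr (ERSE, 162 bases upstream): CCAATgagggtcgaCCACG
Canx (ERSE, 145 bases upstream): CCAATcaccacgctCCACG
Creld2 (ERSE, 126 bases upstream): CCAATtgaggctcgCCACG
Derl3 (ERSE, 156 bases upstream): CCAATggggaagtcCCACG
Dnajb11 (ERSE-II, 7 bases downstream): ATTGGcCCACG
Dnajc3 (ERSE, 105 bases upstream): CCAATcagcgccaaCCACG
Herpud1 (ERSE-II, 52 bases upstream): ATTGGgCCACG
Hsp90b1 (ERSE, 212 bases upstream): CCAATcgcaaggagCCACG
Hsp90b1 (ERSE, 107 bases upstream): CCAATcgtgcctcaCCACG
Hspa5 (ERSE, 65 bases upstream): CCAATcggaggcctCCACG
Pdia6 (ERSE, 98 bases upstream): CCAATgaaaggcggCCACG
Syvn1 (ERSE, 44 bases upstream): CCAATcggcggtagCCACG

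The 250 bases before the start are shown for Hspa5 (BiP), whose ERSE is one of the best studied, and for Derl3, a derlin of ER-associated degradation that differed most between replicates. Both lie on the plus strand, at chr2:34771840-34772089 and chr10:75893148-75893397, and the capitals mark the whole ERSE, which runs on the minus strand in Derl3.
Hspa5: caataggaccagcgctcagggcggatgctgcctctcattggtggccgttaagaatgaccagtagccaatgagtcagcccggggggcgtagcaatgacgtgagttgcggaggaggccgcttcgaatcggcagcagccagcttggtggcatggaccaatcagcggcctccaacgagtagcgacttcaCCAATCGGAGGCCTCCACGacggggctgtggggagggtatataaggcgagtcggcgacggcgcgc
Derl3: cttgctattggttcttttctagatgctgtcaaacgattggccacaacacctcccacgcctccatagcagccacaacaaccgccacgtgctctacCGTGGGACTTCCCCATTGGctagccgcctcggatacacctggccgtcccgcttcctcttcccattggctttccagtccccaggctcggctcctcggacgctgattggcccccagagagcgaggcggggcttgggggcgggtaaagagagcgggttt

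In unstimulated LacZ fibroblasts, the levels per exon length (CPM per kilobase of exon, RPKM, mean ± SD, n = 4) covered a wide range. Serpinh1 was highest at 574 ± 101 RPKM, followed by P4hb at 407 ± 16.3, the lectin chaperone calreticulin (Calr) at 374 ± 117, the isomerase Pdia3 at 372.5 ± 81.5 and the ER-resident HSP90, Hsp90b1, at 266 ± 83.3. Neighbours in this order lay within the larger of their SDs from P4hb to Pdia3. Hspa5 stood at 177 ± 54.6 RPKM. The sensors were far lower, with 7.64 ± 0.387 for Atf6, 9.43 ± 0.515 for Eif2ak3 and 5.43 ± 0.431 for Ern1, and Derl3 was lowest at 0.481 ± 0.392 RPKM. Summed over the 33 genes, the mean level was 10090 ± 1696 CPM (SD, n = 4) in LacZ CTRL, 13550 ± 3090 with bFGF, 24780 ± 1326 under TGFβ, 16030 ± 3772 under IL-1β and 12240 ± 2871 under TNFα. In iCre fibroblasts the same sum was 9698 ± 2344 in CTRL, 12070 ± 3180 with bFGF, 25580 ± 1769 under TGFβ, 13330 ± 3708 under IL-1β and 12180 ± 3607 under TNFα. CPM values below are scaled by library size and TMM factor and are given for replicates 1 to 4 in that order.

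**Figure D1:**
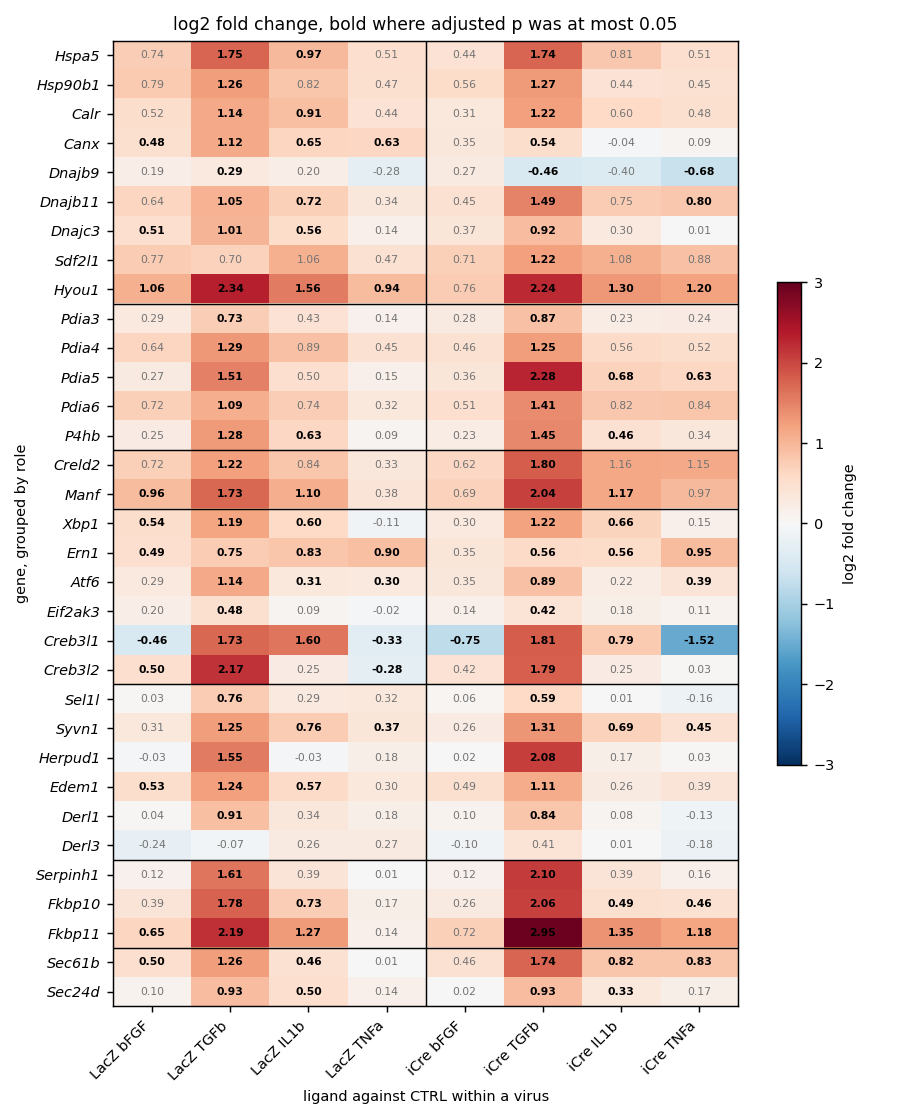
Log2 fold change of each of the 33 genes (rows, grouped by role) for each ligand against CTRL within a virus (columns), with the value printed in each cell and in bold where the adjusted p was at most 0.05. The TGFβ columns are bold in 31 LacZ cells and 32 iCre cells, and the only bold iCre TGFβ cell below 0 is Dnajb9.

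TGFβ is the canonical activator of fibroblasts to myofibroblasts, and its effect was measured in fibroblasts with the LacZ and with the iCre virus. With TGFβ, 31 of the 33 genes rose and none fell in LacZ fibroblasts, and 31 rose and 1 fell in iCre fibroblasts (edgeR quasi-likelihood test, adjusted p at most 0.05). Of all genes tested, 17.5% were higher and 19.3% lower in LacZ, and 18.6% higher and 18.8% lower in iCre. After a GC correction 29 rose and none fell in iCre, where Dnajb9, Sdf2l1 (adjusted p = 0.0519) and Eif2ak3 (adjusted p = 0.0558) no longer passed, and without replicate 3 Canx, Sdf2l1, Ern1 and Eif2ak3 did not. The median log2 fold change of the 33 genes was 1.22 in LacZ and 1.27 in iCre, against −0.17 and −0.11 over all genes. The 3 pericyte and smooth muscle markers, all detected, summed to 98.1 to 549 CPM in LacZ CTRL and 660.1 to 1165 CPM with TGFβ, without overlap, and to 284 to 890.4 CPM and 744 to 1919 CPM in iCre. The fibroblast markers, which include collagen genes, summed to 30430 to 47670 CPM in LacZ CTRL and 57150 to 66620 CPM with TGFβ, and to 20810 to 37000 and 46880 to 61770 CPM in iCre, without overlap. Cardiomyocyte markers (14.6 to 110.3 against 2.82 to 14.3 CPM) were lower with TGFβ in LacZ, also without overlap. So was the plasma cell marker sum, nearly all Sdc1 (232 to 285 against 148 to 230.2 CPM). The part of these markers in the result was not tested. The ligand comparisons within a virus share their 4 CTRL libraries, so each is given by its own values and no overlap between them is drawn.

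Among the chaperones, 8 of 9 rose in LacZ and 8 of 9 in iCre fibroblasts. Hyou1, an ER chaperone of the HSP110 family that also serves as a nucleotide exchange factor of BiP, had the largest change of the group in LacZ. Its levels were 76.98, 105, 96.3 and 152 CPM in CTRL and 450.5, 593, 532 and 581 CPM with TGFβ. Every TGFβ library lay above every CTRL library (log2 fold change 2.34 ± 0.20 (SE), adjusted p = 1.22e-05), as it did in iCre fibroblasts (log2 fold change 2.24 ± 0.27 (SE), adjusted p = 7.96e-05). Hspa5 was at 518, 721, 693 and 1069 CPM in LacZ CTRL and at 1978, 2887, 2445 and 2670 CPM with TGFβ. The groups did not overlap (log2 fold change 1.75 ± 0.22 (SE), adjusted p = 0.000140), although replicate 4 was the highest CTRL library. In iCre fibroblasts Hspa5 was at 585, 595, 656 and 1243 CPM in CTRL and 2051, 2889, 2358 and 2861 CPM with TGFβ, again without overlap (log2 fold change 1.74 ± 0.25 (SE), adjusted p = 0.000329). The calnexin and calreticulin pair, lectin chaperones that hold glycoproteins, rose by 1.13 and 1.14 on the log2 scale in LacZ and by 0.54 and 1.22 in iCre. Hsp90b1 rose by 1.26 and 1.27 and the BiP co-chaperone Dnajc3 by 1.01 and 0.92. Sdf2l1, a partner of ER DnaJ proteins, rose in iCre (log2 fold change 1.22 ± 0.37 (SE), adjusted p = 0.0245). In LacZ it did not pass without the replicate block (log2 fold change 0.70 ± 0.29 (SE), adjusted p = 0.0830) and passed with it (log2 fold change 0.73, adjusted p = 0.000729).

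Dnajb9, a BiP co-chaperone (ERdj4) and a known target of XBP1, moved apart from the other chaperones. It was at 56.3, 61.3, 51.9 and 59.1 CPM in LacZ CTRL and 64.6, 69.6, 71.5 and 70.6 CPM with TGFβ, and the groups did not overlap (log2 fold change 0.29 ± 0.08 (SE), adjusted p = 0.0113). Its iCre levels were 51.2, 60.2, 52.3 and 60.3 CPM in CTRL and 40.95, 40.8, 35.9 and 43.3 CPM with TGFβ. All 4 iCre TGFβ libraries lay below all 4 CTRL libraries (log2 fold change −0.46 ± 0.10 (SE), adjusted p = 0.00312). At 40.6% GC, Dnajb9 had the lowest GC content of the 33 genes, and after a GC correction this fall was −0.06 on the log2 scale (adjusted p = 0.689). Its gene also overlaps another annotated gene, and whether counting used the strand was not stated.

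All 5 disulfide isomerases rose with both viruses. Pdia5 was at 42.5, 32.5, 44.5 and 43.8 CPM in LacZ CTRL and at 124, 120.1, 111 and 105 CPM with TGFβ (log2 fold change 1.51 ± 0.12 (SE), adjusted p = 1.08e-05), and in iCre it went from 29.2, 25.7, 29.8 and 35.1 CPM to 132, 139, 148 and 155 CPM (log2 fold change 2.28 ± 0.11 (SE), adjusted p = 5.32e-07). No TGFβ library overlapped a CTRL library with either virus. P4hb, which is also the β subunit of collagen prolyl 4-hydroxylase, rose by 1.28 in LacZ and 1.45 in iCre, Pdia4 by 1.30 and 1.25, Pdia6 by 1.09 and 1.41, and Pdia3, the partner of calnexin and calreticulin, by 0.73 and 0.87. Both lumenal stress proteins rose as well. The secreted ER stress protein Manf rose by 1.73 and 2.04 and Creld2 by 1.22 and 1.81.

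The largest iCre change of all 33 genes with TGFβ was that of Fkbp11, which the list used here placed beside the collagen folding genes Serpinh1 and Fkbp10. Fkbp11, an ER peptidyl-prolyl isomerase, was at 10.2, 10.1, 9.99 and 11.7 CPM in LacZ CTRL and 54.6, 42.1, 48.7 and 43.0 CPM with TGFβ (log2 fold change 2.19 ± 0.12 (SE), adjusted p = 1.46e-06). Its iCre levels were 7.86, 8.20, 7.82 and 11.3 CPM in CTRL and 58.8, 59.6, 77.4 and 73.3 CPM with TGFβ (log2 fold change 2.95 ± 0.16 (SE), adjusted p = 7.94e-07). Neither pair of groups overlapped. Serpinh1 was at 1451, 1044, 1525 and 1591 CPM in LacZ CTRL and 4340, 4385, 4076 and 4141 CPM with TGFβ, again without overlap (log2 fold change 1.61 ± 0.16 (SE), adjusted p = 3.70e-05), and its iCre log2 fold change was 2.10 ± 0.15 (SE). Fkbp10 rose by 1.78 in LacZ and 2.06 in iCre. Sec61b, a subunit of the translocon through which proteins enter the ER, rose by 1.26 and 1.74, and Sec24d, a cargo-binding coat protein of the vesicles that leave it, by 0.93 and 0.93.

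All 6 sensors and transcription factors rose with TGFβ with both viruses. Creb3l2, an ER-anchored transcription factor of the OASIS family that serves secretory capacity, was at 147, 178, 136 and 148 CPM in LacZ CTRL and 798, 662, 630.1 and 620.2 CPM with TGFβ. The groups did not overlap (log2 fold change 2.17 ± 0.13 (SE), adjusted p = 1.75e-06). Its relative Creb3l1 (OASIS), known for its role in collagen secretion, was at 101, 92.6, 105 and 100.1 CPM and 366, 298, 323 and 322 CPM (log2 fold change 1.73 ± 0.10 (SE), adjusted p = 1.75e-06). In iCre fibroblasts Creb3l2 rose by 1.79 and Creb3l1 by 1.81. Xbp1 rose by 1.19 and 1.22 and Atf6 by 1.14 and 0.89, while Ern1 rose by 0.75 and 0.56 and Eif2ak3 by 0.48 and 0.42. Gene counts do not separate spliced from unspliced Xbp1 mRNA.

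Of the degradation genes, 5 of 6 rose with TGFβ with both viruses. Herpud1, a membrane protein of the degradation complex, was at 82.7, 59.6, 84.4 and 103 CPM in LacZ CTRL and 232, 297, 208 and 217 CPM with TGFβ (log2 fold change 1.55 ± 0.18 (SE), adjusted p = 8.37e-05), and rose by 2.08 in iCre. The ubiquitin ligase Syvn1 (HRD1) rose by 1.25 and 1.31, the mannosidase-like lectin Edem1 by 1.24 and 1.12, Derl1 by 0.91 and 0.84 and the HRD1 adaptor Sel1l by 0.76 and 0.59. Derl3 did not pass. It was at 0.335, 0.593, 0.816 and 2.09 CPM in LacZ CTRL and 0.0276, 0.823, 0.775 and 2.05 CPM with TGFβ, and the groups overlapped (log2 fold change −0.07 ± 0.83 (SE), adjusted p = 0.964).

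**Figure D2:**
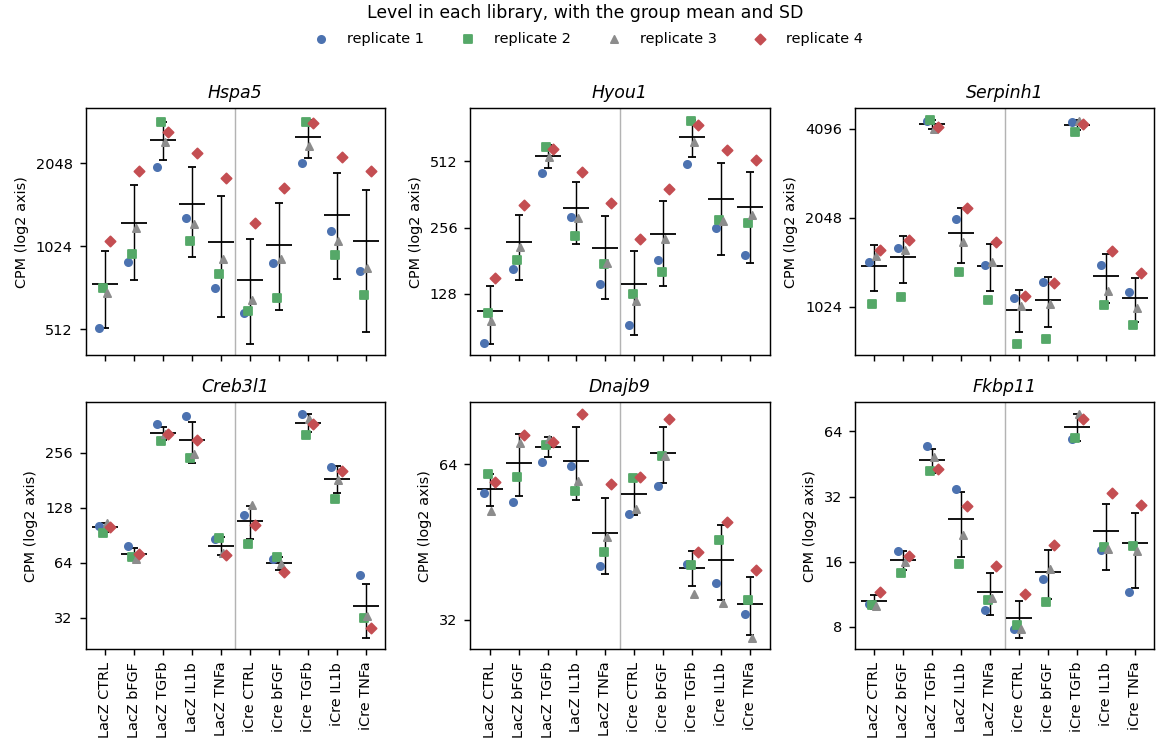
Level of selected ER genes (one panel per gene) in the 40 libraries, in CPM on a log2 axis, by group (LacZ groups left and iCre groups right of the line) and with a marker for each replicate number and a bar at the group mean with its SD. For Hspa5 the replicate 4 library was the highest in 8 of the 10 groups, and the TGFβ groups lay above the CTRL group of the same virus in every library.

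With IL-1β, the inflammatory cytokine whose receptor signals through TAK1, 18 of the 33 genes rose and none fell in LacZ fibroblasts, and 12 rose and none fell in iCre fibroblasts. The share of all genes was 11.1% higher and 9.55% lower in LacZ and 9.38% higher and 6.88% lower in iCre. The median log2 fold change of the 33 genes was 0.63 in LacZ and 0.49 in iCre, against −0.10 and 0 over all genes. Same-numbered replicates deviated together in all genes, and with the replicate number as a block 29 genes rose in LacZ, where 33.5% of all genes changed in either direction, and 26 rose and 1 fell in iCre, where 33.8% of all genes changed. In simulated data this edgeR fit with the block made more false calls than its threshold allows. The simulated libraries held no effect of replicate number, unlike these data, so this does not give its rate of false calls here. By limma-voom with the block 28 genes were called with each virus, a count given without its share of all genes. After a GC correction without the block 7 genes rose in iCre. Cardiomyocyte markers summed to 0.326 to 1.64 CPM with IL-1β in LacZ, below CTRL. The plasma cell marker sum, nearly all Sdc1, was 309 to 345 CPM in LacZ and 265 to 330.2 CPM in iCre. It lay above CTRL with both viruses (176 to 245 CPM in iCre CTRL), and the part of these markers was not tested.

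The largest IL-1β change in LacZ fibroblasts was that of Creb3l1. It was at 101, 92.6, 105 and 100.1 CPM in CTRL and 408, 239, 252 and 301 CPM with IL-1β, without overlap (log2 fold change 1.60 ± 0.16 (SE), adjusted p = 0.000161). Hyou1 was at 287, 233, 282 and 459 CPM with IL-1β and lay above all CTRL libraries (log2 fold change 1.57 ± 0.25 (SE), adjusted p = 0.00172). Fkbp11 was at 34.5, 15.6, 21.2 and 29.1 CPM with IL-1β, also without overlap (log2 fold change 1.27 ± 0.22 (SE), adjusted p = 0.00260). Hspa5 was at 1301, 1073, 1234 and 2224 CPM, above the CTRL libraries (log2 fold change 0.97 ± 0.27 (SE), adjusted p = 0.0293). Of the sensors, Ern1 rose by 0.83, Xbp1 by 0.61 and Atf6 by 0.31, while Creb3l2 (0.25 ± 0.11 (SE)) and Eif2ak3 (0.09 ± 0.13 (SE)) did not pass, the former with an adjusted p of 0.0217 under the block. Manf rose by 1.10, P4hb by 0.63, Syvn1 by 0.76 and Fkbp10 by 0.73.

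In iCre fibroblasts with IL-1β, Fkbp11 was at 18.04, 18.7, 18.4 and 33.3 CPM, above the CTRL libraries (log2 fold change 1.35 ± 0.23 (SE), adjusted p = 0.00337), and Hyou1 was at 255, 276, 275 and 577 CPM (log2 fold change 1.30 ± 0.33 (SE), adjusted p = 0.0230). Manf was at 63.3, 63.4, 75.9 and 135 CPM in CTRL and 152, 138, 152 and 308 CPM with IL-1β (log2 fold change 1.17 ± 0.32 (SE), adjusted p = 0.0306). For all 3 genes the replicate 4 library was the highest of the IL-1β group, and the iCre groups did not overlap. Creb3l1 rose from 116, 80.98, 133 and 103 CPM to 214, 143, 180.5 and 202 CPM (log2 fold change 0.79 ± 0.17 (SE), adjusted p = 0.0104). Hspa5 was at 1160, 951, 1068 and 2154 CPM and did not pass without the block (log2 fold change 0.81 ± 0.32 (SE), adjusted p = 0.121) but did with it (adjusted p = 6.19e-20, and 1.82e-05 by limma-voom). Canx did not pass (log2 fold change −0.05 ± 0.16 (SE), adjusted p = 0.908). Xbp1 rose by 0.66, Ern1 by 0.56, Sec61b by 0.83 and Pdia5 by 0.68. After the GC correction the adjusted p was 0.0560 for Hyou1 and 0.0676 for Manf.

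With bFGF, a fibroblast growth factor, 10 genes rose and 1 fell in LacZ fibroblasts (all genes 7% higher and 4.64% lower), and none rose and 1 fell in iCre fibroblasts by edgeR (all genes 1.79% higher and 0.635% lower). Of the 11 LacZ calls, 11 were lost without replicate 3, 9 without replicate 4, 8 without replicate 1 and 0 without replicate 2. At an unadjusted p of at most 0.05, 11 genes differed in iCre, where 16.7% of all genes did, and DESeq2 gave 4 higher and 1 lower, where it called 7.93% of all genes. The median log2 fold change was 0.50 in LacZ and 0.35 in iCre, against −0.03 and 0 over all genes. With the replicate block, 24 genes rose and 1 fell in LacZ, where 27.3% of all genes changed, and 25 rose and 1 fell in iCre, where 16.7% changed. The plasma cell marker sum, nearly all Sdc1, was lower with bFGF than in CTRL with both viruses (140 to 192 CPM in LacZ and 124 to 166 CPM in iCre). Endothelial markers were higher in iCre (2.57 to 5.76 against 1.04 to 2.45 CPM). All were without overlap, and the part of these markers was not tested.

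The LacZ gene with the largest rise was Hyou1, at 166, 182, 209 and 325 CPM with bFGF, where every library lay above every CTRL library (log2 fold change 1.06 ± 0.25 (SE), adjusted p = 0.0222). Manf was at 66.2, 82.8, 81.2 and 119.7 CPM in CTRL and 133, 124, 166 and 246 CPM with bFGF (log2 fold change 0.96 ± 0.24 (SE), adjusted p = 0.0282), and Fkbp11 was at 17.9, 14.1, 15.9 and 17.02 CPM (log2 fold change 0.65 ± 0.11 (SE), adjusted p = 0.00711). Neither gene's groups overlapped, with replicate 4 the highest of the bFGF libraries for Manf. Hspa5 was at 901, 956, 1188 and 1914 CPM in LacZ (log2 fold change 0.75 ± 0.27 (SE), adjusted p = 0.115) and 890.3, 665, 924 and 1663 CPM in iCre (log2 fold change 0.44 ± 0.33 (SE), adjusted p = 0.542), and it did not pass without the block. With the block its adjusted p was 4.17e-06 in LacZ and 0.00114 in iCre, and each of the 4 pairs of same-numbered libraries was higher with bFGF with either virus. Xbp1 (0.54), Creb3l2 (0.50), Ern1 (0.50), Edem1 (0.53), Sec61b (0.50), Canx (0.48) and Dnajc3 (0.51) also rose in LacZ, by the log2 values given. Creb3l1 was the gene that fell. It was at 79.2, 68.5, 66.8 and 71.6 CPM in LacZ (log2 fold change −0.46 ± 0.09 (SE), adjusted p = 0.0116) and 66.7, 68.6, 62.6 and 57.0 CPM in iCre (log2 fold change −0.75 ± 0.14 (SE), adjusted p = 0.0286), below all CTRL libraries of the same virus.

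With TNFα, whose receptor also signals through TAK1, 5 genes rose and 2 fell in LacZ fibroblasts, where 10.9% of all genes were higher and 10.4% lower. Among the iCre libraries 9 rose and 2 fell, where 14.7% of all genes were higher and 12.3% lower, and after a GC correction 5 rose and 1 fell. The LacZ share of the 33 genes called in either direction (7 of 33) was near that of all genes. The median log2 fold change of the 33 genes was 0.27 in LacZ and 0.39 in iCre, against −0.08 and −0.04 over all genes. With the replicate block, 19 rose and 3 fell in LacZ, where 35.5% of all genes changed, and 20 rose and 2 fell in iCre, where 36.1% changed. Cardiomyocyte markers summed to 0.874 to 6.65 CPM with TNFα in LacZ, below CTRL, and their part was not tested.

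Ern1 and Hyou1 had the largest rises in LacZ fibroblasts. Ern1 was at 47.3, 47.6, 41.8 and 40.9 CPM in CTRL and 88.8, 83.2, 78.7 and 81.2 CPM with TNFα, without overlap (log2 fold change 0.90 ± 0.08 (SE), adjusted p = 5.21e-05), and its iCre levels were 50.5, 59.1, 47.95 and 51.8 CPM and 77.03, 130.2, 97.6 and 90.5 CPM (log2 fold change 0.95 ± 0.15 (SE), adjusted p = 0.00141). Hyou1 was at 142, 174, 177 and 329.7 CPM in LacZ, overlapping CTRL (log2 fold change 0.94 ± 0.28 (SE), adjusted p = 0.0359). Canx (0.63), Syvn1 (0.37) and Atf6 (0.30) rose on the log2 scale. The genes that fell were the relatives Creb3l1, at 86.4, 87.7, 72.4 and 70.9 CPM (log2 fold change −0.33 ± 0.09 (SE), adjusted p = 0.0313), and Creb3l2, at 130.5, 121, 122 and 126 CPM (log2 fold change −0.28 ± 0.09 (SE), adjusted p = 0.0389). Both lay below all CTRL libraries. Hspa5 did not pass in LacZ, at 720.2, 814, 920.3 and 1804 CPM (log2 fold change 0.51 ± 0.31 (SE), adjusted p = 0.289), or in iCre, at 834, 679, 852 and 1923 CPM (log2 fold change 0.51 ± 0.36 (SE), adjusted p = 0.335), whereas with the block the adjusted p was 3.75e-05 and 0.00133.

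In iCre fibroblasts with TNFα the largest change was a fall of Creb3l1 from 116, 80.98, 133 and 103 CPM to 54.9, 31.8, 32.8 and 28.2 CPM (log2 fold change −1.52 ± 0.22 (SE), adjusted p = 0.000977). Every TNFα library lay below every CTRL library, with replicate 1 the highest of the TNFα group. Dnajb9 also fell, to 32.8, 34.99, 29.5 and 39.9 CPM (log2 fold change −0.68 ± 0.11 (SE), adjusted p = 0.00163), and after the GC correction its value was −0.25 (adjusted p = 0.121). Hyou1 had the largest rise, from 92.6, 128, 119 and 227 CPM to 192, 267, 292 and 519 CPM, with the groups overlapping (log2 fold change 1.20 ± 0.34 (SE), adjusted p = 0.0257). Fkbp11 rose to 11.6, 19.01, 17.9 and 29.4 CPM (log2 fold change 1.18 ± 0.26 (SE), adjusted p = 0.00752) and Sec61b, at 28.9, 40.4, 37.2 and 40.8 CPM in CTRL, to 50.99, 72.9, 61.2 and 71.6 CPM (log2 fold change 0.84 ± 0.14 (SE), adjusted p = 0.00218), both without overlap. Dnajb11, Pdia5, Fkbp10, Syvn1 and Atf6 made up the rest of the genes that rose with Ern1, by 0.39 to 0.80 on the log2 scale.

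Over the 10 groups, the sensor mRNAs differed in range. The highest group mean was 1.53 times the lowest for Eif2ak3, 2.18 times for Atf6, 2.23 times for Ern1 and 2.75 times for Xbp1, but 5.78 times for Creb3l2 and 10.1 times for Creb3l1, the widest of the 33 genes. Eif2ak3 was at 61.1, 56.8, 53.9 and 55.4 CPM in LacZ CTRL, 73.5, 56.7, 70.8 and 57.7 with bFGF, 90.5, 70.2, 81.2 and 71.4 under TGFβ, 76.1, 48.5, 56.9 and 58.1 under IL-1β and 64.5, 48.5, 55.8 and 54.3 under TNFα. Only the TGFβ libraries lay clear of CTRL. Atf6 was at 75.7, 70.1, 68.7 and 67.8 CPM in LacZ CTRL, 89.6, 69.6, 90.5 and 91.8 with bFGF, 160.3, 171, 140 and 144 under TGFβ, 96.6, 76.2, 87.96 and 87.3 under IL-1β and 88.4, 77.7, 85.4 and 96.6 under TNFα. Its bFGF libraries overlapped CTRL through replicate 2. Xbp1 was at 91.9, 121, 87.97 and 97.1 CPM in LacZ CTRL, 123, 152, 152 and 141 with bFGF, 224, 251, 216 and 206 under TGFβ, 158, 146, 128 and 167 under IL-1β and 82.6, 95.97, 84.9 and 103 under TNFα, and its TNFα libraries overlapped CTRL. Ern1 in LacZ was at 66.2, 58.2, 62.1 and 60.6 CPM with bFGF, 85.2, 60.3, 73.0 and 76.8 with TGFβ and 89.05, 67.2, 81.6 and 74.7 with IL-1β, and no library of these groups overlapped the CTRL values given above.

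The same sensors were measured in iCre fibroblasts. Eif2ak3 was at 70.3, 56.3, 65.1 and 67.02 CPM in CTRL, 74.96, 63.7, 75.5 and 69.5 with bFGF, 94.8, 73.6, 92.6 and 79.6 under TGFβ, 83.1, 59.3, 71.1 and 75.3 under IL-1β and 75.4, 56.5, 73.05 and 67.9 under TNFα. Its groups overlapped CTRL except with TGFβ. Atf6 was at 76.8, 68.1, 67.01 and 74.4 CPM in CTRL, 89.4, 75.5, 101 and 95.8 with bFGF, 123, 119.6, 141 and 140.2 under TGFβ, 81.1, 77.9, 74.9 and 96.2 under IL-1β and 79.5, 84.1, 93.7 and 109 under TNFα, and lay clear of CTRL with TGFβ and TNFα. Xbp1 was at 96.8, 108, 110.1 and 125 CPM in CTRL, 125, 118, 134 and 163 with bFGF, 243, 264, 252 and 252 under TGFβ, 172, 168, 157 and 189.6 under IL-1β and 109, 109.6, 117 and 141 under TNFα, and lay clear of CTRL with TGFβ and IL-1β. Ern1 was at 58.2, 68.7, 68.2 and 70.7 CPM with bFGF, 77.1, 54.6, 86.5 and 86.9 with TGFβ and 74.0, 77.1, 70.97 and 82.9 with IL-1β, and its IL-1β and TNFα libraries lay clear of CTRL. Creb3l2 was at 185, 248, 198 and 216 CPM in CTRL, and its 667, 663, 758 and 798 CPM with TGFβ and the bFGF values given with the comparison of viruses lay above them.

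At each ligand, iCre libraries were compared with LacZ libraries. They differ in Cre as well as in TAK1, and no cells without floxed alleles received iCre. An effect of Cre cannot be told apart from the loss of TAK1. Fibroblast markers summed to less in iCre with IL-1β (22850 to 35690 against 36620 to 69710 CPM) and with TNFα (15350 to 23390 against 25800 to 34600 CPM), and cardiomyocyte markers to more with IL-1β (1.93 to 15.8 against 0.326 to 1.64 CPM), without overlap. The part of these markers in the results at those ligands was not tested. In CTRL and with bFGF no gene passed in either direction by edgeR. Of all genes, 0.0278% were higher and 0.0476% lower in CTRL and 0% in either direction with bFGF. At an unadjusted p of at most 0.05, 5 and 2 of the 33 genes differed, against 14% and 10.3% of all genes, and DESeq2 called 2 and 1, against 5.34% and 1.91% of all genes. With the replicate block 5 genes were higher and 5 lower in CTRL, where 14.5% of all genes changed, and 1 higher and 9 lower with bFGF, where 13.9% changed. Creb3l2 was the only gene higher in iCre with bFGF under the block, at 272, 264, 301 and 292 CPM against 216, 203, 223 and 209 CPM in LacZ, without overlap (log2 fold change 0.41 ± 0.09 (SE), adjusted p = 0.00344 by limma-voom with the block).

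Under TGFβ, 1 gene stood higher and 2 stood lower in iCre than in LacZ, where 2.51% of all genes were higher and 5.87% lower. Dnajb9 was at 40.95, 40.8, 35.9 and 43.3 CPM in iCre against 64.6, 69.6, 71.5 and 70.6 CPM in LacZ, a complete separation (log2 fold change −0.81 ± 0.08 (SE), adjusted p = 0.000321). Canx was at 813, 872, 875 and 866 CPM against 1146, 1126, 1166 and 1188 CPM (log2 fold change −0.46 ± 0.08 (SE), adjusted p = 0.00600), and Fkbp11 was at 58.8, 59.6, 77.4 and 73.3 CPM against 54.6, 42.1, 48.7 and 43.0 CPM (log2 fold change 0.49 ± 0.12 (SE), adjusted p = 0.0355). After the GC correction the log2 values were −0.34, −0.11 and 0.28, and none of these genes or of the other 30 passed. Canx has 42.2% GC and Fkbp11 54.0%. With the block 11 genes were higher and 4 lower, where 20.8% of all genes changed, and with the GC correction added to the block 1 was higher and 3 were lower.

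Under IL-1β, iCre fibroblasts had 1 gene higher and 3 lower, where 7.14% of all genes were higher and 8.98% lower. Of these 4 calls, 4 were lost without replicate 3, 3 without replicate 1, 2 without replicate 4 and 1 without replicate 2. Creb3l1 was at 214, 143, 180.5 and 202 CPM in iCre against 408, 239, 252 and 301 CPM in LacZ, with no overlap (log2 fold change −0.72 ± 0.19 (SE), adjusted p = 0.0275), and this difference was −1.001 after the GC correction (adjusted p = 0.0118). Creb3l2 was higher, at 224, 259, 228 and 286 CPM against 210.4, 166, 162 and 179 CPM (log2 fold change 0.46 ± 0.12 (SE), adjusted p = 0.0253). The GC correction left Creb3l2 at 0.37 (adjusted p = 0.0827). Dnajb9 was lower (log2 fold change −0.65 ± 0.14 (SE), adjusted p = 0.0102), as was Canx (log2 fold change −0.56 ± 0.17 (SE), adjusted p = 0.0452). Their values were −0.20 and −0.23 with the GC correction, and neither passed, while Derl1 (−0.48, adjusted p = 0.0366) and Serpinh1 (−0.74, adjusted p = 0.0436) passed with it. With the block 2 genes were higher and 15 lower, where 29.5% of all genes changed, and with the GC correction added to the block 1 and 13.

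Under TNFα, 3 genes were higher and 4 lower in iCre, where 14.8% of all genes were higher and 12.6% lower, so the share of the 33 genes was below that of all genes. Creb3l1 had the largest difference, with 54.9, 31.8, 32.8 and 28.2 CPM in iCre against 86.4, 87.7, 72.4 and 70.9 CPM in LacZ and no overlap (log2 fold change −1.08 ± 0.20 (SE), adjusted p = 0.00317). Creb3l2 differed the other way, with 185, 202, 234 and 226 CPM against 130.5, 121, 122 and 126 CPM, also without overlap (log2 fold change 0.78 ± 0.09 (SE), adjusted p = 0.000374). After the GC correction these were −1.36 (adjusted p = 0.00158) and 0.69 (adjusted p = 0.000944). Sec61b was higher at 50.99, 72.9, 61.2 and 71.6 CPM against 39.3, 45.3, 39.5 and 42.99 CPM (log2 fold change 0.64 ± 0.12 (SE), adjusted p = 0.00288), and 0.40 after the GC correction. Derl1 (−0.46 ± 0.11 (SE)) and Sel1l (−0.47 ± 0.15 (SE)) were lower, and Xbp1 was higher (0.40 ± 0.11 (SE)). With the correction Xbp1 was at 0.21 and did not pass, and Serpinh1 was lower (−0.59, adjusted p = 0.0380). Dnajb9 was lower (log2 fold change −0.44 ± 0.13 (SE), adjusted p = 0.0318), but its value was 0.03 after the GC correction. With the block 13 genes were higher and 7 lower, where 32.2% of all genes changed, and with the GC correction added to the block 9 and 5.

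**Figure D3:**
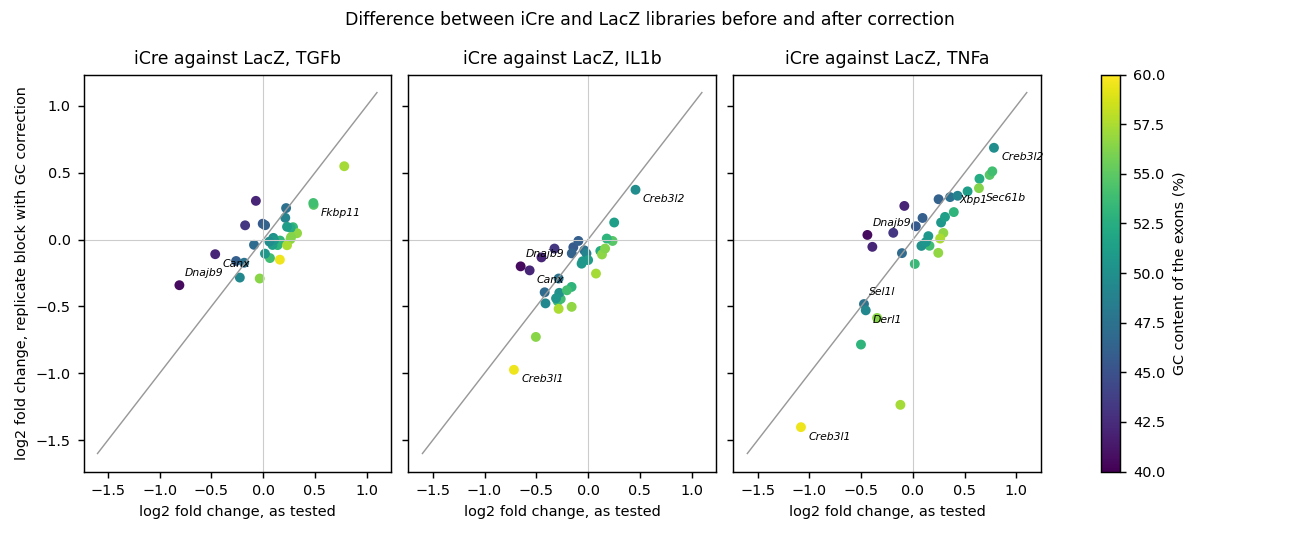
Log2 fold change of iCre against LacZ libraries for each of the 33 genes as tested (horizontal axis) and after both the block and the GC correction (vertical axis), by ligand panel, with colour for the GC content of the exons in percent and a diagonal line of equal values. In the panels of TGFβ, IL-1β and TNFα, Dnajb9 with 40.6% GC lies above the diagonal, and Creb3l1 stays below 0 on both axes with IL-1β and TNFα.

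Whether a ligand's effect differed between iCre and LacZ fibroblasts was tested by an interaction term over 16 libraries, whose log2 value is the ligand effect in iCre minus that in LacZ. With bFGF no gene passed by edgeR (all genes 0% in either direction). None of the 33 was at an unadjusted p of at most 0.05, where 3.03% of all genes were, and DESeq2 called none of them and 0% of all genes. With TGFβ, the difference was above 0 for Pdia5 (log2 difference 0.74 ± 0.17 (SE), adjusted p = 0.0152) and Fkbp11 (log2 difference 0.74 ± 0.19 (SE), adjusted p = 0.0377) and below 0 for Canx (log2 difference −0.61 ± 0.16 (SE), adjusted p = 0.0387) and Dnajb9 (log2 difference −0.78 ± 0.12 (SE), adjusted p = 0.000646), whose log2 fold change with TGFβ was 0.29 in LacZ and −0.46 in iCre. Of all genes, 0.893% passed with a difference above 0 and 3.62% below 0. None of these 4 passed after the GC correction. With IL-1β the difference was below 0 for Dnajb9 (log2 difference −0.61 ± 0.17 (SE), adjusted p = 0.0348), whose log2 fold change was 0.20 in LacZ and −0.40 in iCre, neither of which passed without the block, while the iCre value did with it (adjusted p = 6.37e-07). The GC correction brought the difference to −0.21 (adjusted p = 0.575), and with it Creb3l1 passed (−1.06, adjusted p = 0.0256, against −0.82 and adjusted p = 0.0560 without). Of all genes 2.76% passed with a difference above 0 and 4.95% below 0. With the block 6 genes passed, all below 0, where 16.9% of all genes differed in either direction.

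With TNFα the difference was above 0 for Fkbp11 (log2 difference 1.02 ± 0.32 (SE), adjusted p = 0.0381) and Sec61b (log2 difference 0.82 ± 0.18 (SE), adjusted p = 0.00477) and below 0 for Creb3l1 (log2 difference −1.20 ± 0.26 (SE), adjusted p = 0.00418), which fell further in iCre (−1.52) than in LacZ (−0.33). Of all genes 8.38% passed with a difference above 0 and 7.70% below 0, again above the share of the 33 genes. After the GC correction Creb3l1 (−1.43, adjusted p = 0.00182) and Sec61b (0.60, adjusted p = 0.0366) passed and Fkbp11 did not (adjusted p = 0.104). With the block 8 genes passed above 0 and 5 below 0, where 25.1% of all genes differed, and with the GC correction added to the block 6 and 3.

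The spread between replicates of one group showed a pattern in these genes. For each gene, the log2 CPM of each library (pseudocount 0.5 CPM) was set against the mean of the other 3 libraries of its group and averaged over the 10 groups. Libraries with replicate number 4 were the highest of their group in at least 8 of 10 groups for 19 of the 33 genes (57.6%), against 3.58% of the 14175 genes that averaged at least 0.5 CPM. The median deviation of replicate 4 was 0.34 on the log2 scale for the 33 genes and −0.01 for all genes, which lay between −0.34 and 0.41 when 1 gene in 20 was left out at each end. Replicates 1, 2 and 3 had medians of −0.11, −0.25 and −0.05 for the 33 genes. Same-numbered libraries deviated together in all genes, so these 10 groups were not treated as independent and no test was made. What a replicate number stands for was not stated in the sources used here.

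By role, the pattern held for all 9 chaperones (median deviation 0.75), both lumenal stress proteins (0.86), 5 of 6 degradation genes (0.32) and 3 of 5 isomerases (0.59), but for none of the 6 sensors and transcription factors (0.04), the 3 collagen folding genes (0.26) or the 2 translocation and export genes (0.03). Hspa5 in iCre CTRL shows its size, with 585, 595, 656 and 1243 CPM. Replicate 4 was the highest library there. Derl3 had the largest deviation (1.97), followed by Sdf2l1 (1.21), Pdia4 (0.98), Creld2 (0.97) and Hspa5 (0.85). Derl3 in iCre TNFα was at 0.0509, 0.119, 0.136 and 3.99 CPM. The 11 genes with an ERSE or ERSE-II in the window, printed above, were all among the 19 (median 0.75), as were 6 of the 16 genes whose windows held neither (0.25). Among the chaperones, Dnajb9 and Sdf2l1 met the count without an element, and Hyou1, which met it too, had no window. Genes outside the list with an element were not counted. Whether the pattern goes with the element or with the role of the genes was not tested. For Hspa5 with TGFβ in LacZ, at 1978, 2887, 2445 and 2670 CPM, replicate 2 was the highest. Outside the list, it was also met by 3 of 11 genes of the PERK and ATF4 arm (27.3%, median 0.22), 4 of 22 further ER folding genes (18.2%, 0.13), 4 of 24 genes of translocation and glycosylation (16.7%, 0.14), 1 of 26 of ER-to-Golgi transport, 1 of 17 of degradation and none of 10 of collagen and other matrix cargo (−0.18), and leukocyte and macrophage markers had a median of 0.71 with none of 4 meeting the count. The part of those markers in the pattern was not tested.

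**Figure D4:**
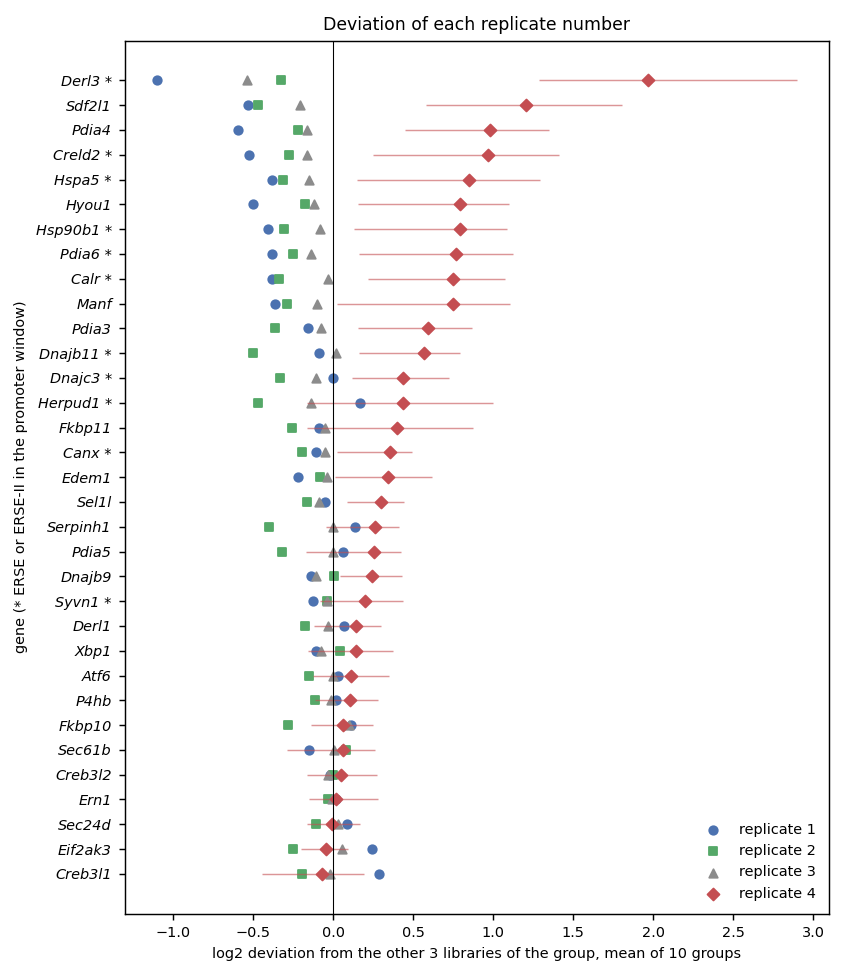
Deviation of each replicate number from the other 3 libraries of its group, as the mean over 10 groups of the log2 difference (horizontal axis), for each of the 33 genes (rows), with an asterisk for genes with an ERSE or ERSE-II in the promoter window. Replicate 4 lies furthest right for most genes, from −0.07 for Creb3l1 to 1.97 for Derl3.

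Lists of other genes of the secretory pathway were counted in the same fits, without the replicate block and without the GC correction. With TGFβ in LacZ fibroblasts, where 17.5% of all genes rose, 25 of 26 genes of ER-to-Golgi transport did so (median log2 fold change 0.99), 23 of 24 of translocation and glycosylation (0.96), 17 of 23 of further ER folding (0.79), 11 of 17 of degradation with 1 that fell (0.57) and 8 of 11 of the PERK and ATF4 arm (1.45). Of 10 genes of collagen and other matrix cargo 7 rose and 2 fell (1.02). In iCre fibroblasts the counts of genes that rose were 25, 22, 17, 12, 9 and 7 in the same order, and 0, 0, 0, 2, 0 and 1 fell, against 18.6% of all genes higher and 18.8% lower. Chac1, a glutathione-degrading target of ATF4, rose by 3.83 ± 0.22 (SE) in LacZ and by 4.59 ± 0.43 in iCre (adjusted p = 1.82e-06 and 1.86e-05), and Atf4 itself by 1.70 ± 0.15 and 2.54 ± 0.13 (adjusted p = 1.76e-05 and 5.96e-07). Col1a1 rose by 2.15 ± 0.20 and 2.58 ± 0.22 (adjusted p = 2.35e-05 and 8.89e-06).

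With IL-1β in LacZ fibroblasts 18 of 26 transport genes, 13 of 24 translocation and glycosylation genes, 10 of 23 folding genes, 8 of 17 degradation genes and 3 of 11 genes of the PERK and ATF4 arm rose, the last with 1 that fell, where 11.1% of all genes were higher. In iCre the counts were 12, 11, 9, 8 and 4, with 0, 1, 1, 1 and 0 that fell, where 9.38% of all genes were higher. The gene that fell in LacZ was Ddit3 (CHOP, log2 fold change −0.82 ± 0.18 (SE), adjusted p = 0.0108), a transcription factor of prolonged ER stress. P4ha2, a catalytic subunit of collagen prolyl 4-hydroxylase, rose by 2.24 ± 0.27 (adjusted p = 0.000432). With bFGF 9, 13, 6, 3 and 1 genes of these lists rose in LacZ and 1 folding gene fell (all genes 7% higher), and in iCre 1 folding gene rose and none of the others passed. The iCre fit without the block called 1.79% of all genes higher and 0.635% lower. With the block 16.7% of all genes changed, so the iCre counts do not show that these genes were unchanged. With TNFα 6, 4, 3, 6 and 4 rose and 0, 1, 2, 0 and 0 fell in LacZ, where 10.9% of all genes were higher and 10.4% lower, so the shares of translocation and folding genes that rose lay near that of all genes. In iCre 8, 13, 6, 9 and 5 rose and 2, 1, 4, 2 and 0 fell, against 14.7% higher and 12.3% lower. Between iCre and LacZ with IL-1β, 8 of 23 folding genes, 5 of 17 degradation genes, 4 of 24 translocation and glycosylation genes, 3 of 26 transport genes and 1 of 11 of the PERK and ATF4 arm were lower, and 1 transport gene was higher, where 8.98% of all genes were lower. With TGFβ 4, 4, 7, 4 and 0 were lower and 0, 1, 1, 1 and 0 higher in the same order, against 5.87% lower and 2.51% higher of all genes. With TNFα 6, 4, 2, 3 and 0 were lower and 3, 3, 6, 8 and 0 higher, against 12.6% lower and 14.8% higher of all genes, so the lower counts of translocation and transport genes and the higher count of folding genes did not exceed the share of all genes. In CTRL and with bFGF none passed by edgeR without the block, with which 14.5% and 13.9% of all genes changed. Of the 10 genes of collagen and other matrix cargo, 1 rose and 2 fell with IL-1β, 1 fell with bFGF and 2 fell with TNFα in LacZ, and in iCre 2 fell with TNFα and none passed with IL-1β or bFGF. Between iCre and LacZ, under IL-1β 3 of them stood lower and 1 stood higher, under TNFα 5 stood lower, and none passed with TGFβ. In the interaction with TNFα, Rnf139, an ER-anchored ubiquitin ligase, had a log2 difference of ligand effects below 0 (−1.42 ± 0.16, adjusted p = 3.40e-05), and Erp29, an ER folding factor, one above 0 (0.82 ± 0.13, adjusted p = 0.000412). Both were picked for their size from these lists, and their values carry no GC correction. Of all genes 8.38% passed above 0 and 7.70% below 0 in this interaction.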

How the data were processed

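Poly(A) RNA of cardiac fibroblasts was sequenced as single-end reads in 40 libraries, 4 for each of 10 groups. Per the labels and the study's methods, the authors aligned reads to mm10 with STAR after FastQC and deposited raw counts per Ensembl gene from HTSeq (version 0.10.0). The annotation release and the strand setting are not given in the sources used here, and the labels and the methods name different library kits and FastQC versions (0.10.1 in the submitters' processing notes). In all, 9 of the 33 genes (Dnajb9, Eif2ak3, Fkbp10, Hsp90b1, Manf, Pdia3, Pdia4, Pdia6 and Syvn1) overlap another annotated gene, so some of their reads could belong to it.

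Genes with at least 10 counts over all libraries were tested with edgeR (version 4.0.16, quasi-likelihood F-test, TMM factors) in R 4.3.3. Each ligand was compared with CTRL within a virus and iCre with LacZ at each ligand over 8 libraries, and the interaction was fitted over 16 libraries. P-values were adjusted by Benjamini-Hochberg over all 25210 genes tested, with a threshold of 0.05. Fold changes are log2 with their standard errors. CPM were scaled by TMM factors. The alternatives were DESeq2 (version 1.42.0), RLE factors, filterByExpr, no filter, one fit over all 40 libraries, the replicate number as a block, a loess correction for GC content (span 0.5), both together, and each replicate left out in turn. The block was also fitted by limma-voom (limma version 3.58.1), which was chosen after seeing the data. All tests were checked on simulated data for 3 comparisons, where DESeq2 and, between 2 groups, edgeR with the block made more false calls than the threshold allows. The main test did so to a lesser degree in 1 of the 3. The simulated libraries held no effect of replicate number, so these rates need not carry over to libraries paired by number.

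The study states 4 biological replicates from male mice per group, and p-values measure the spread between these samples. The replicate numbers of the labels paired the samples: over 13090 genes, the deviations of same-numbered libraries from their group means correlated at 0.332 to 0.861 in every comparison, and each of the 4 numbers correlated best with itself. At the depths found, the 33 genes other than Derl3 held at least 240 counts in every library.

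The members, the other lists and the genes described by sample were chosen with earlier results of these data known. Genes described by sample were up to 3 with the largest change in each direction among those that passed in a comparison, with Hspa5 and the sensors, and Serpinh1, Herpud1, Derl3 and Sec61b were added after their values were seen. Promoter sequences came from RefSeq (GRCm38.p6) and matched 27 of the 33 symbols.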

Additional observations from a re-analysis of the deposited data

Results flagged for a closer look

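In each gene and group of 4 libraries, 1 library was said to stand apart when its gap to the nearest of the others, divided by the range of the group, was above the 95% critical value of Dixon's test. This was so in 44 of 330 groups (13.3%), against 8.001% over the 14175 genes that averaged at least 0.5 CPM. Chance gives about 1 in 20 for independent groups, which these are not, since same-numbered libraries deviated together. The library was replicate 4 in 38 cases (86.4%), always the highest, against 8.24% of the cases over all genes, and replicate 1 or 2 in 3 cases each. The groups with most cases were iCre IL-1β with 11, iCre TNFα with 8 and iCre CTRL with 7.

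Hspa5 reached 1243 CPM in iCre CTRL (others 585 to 656) and 1923 CPM in iCre TNFα (others 679 to 852) in replicate 4. For Hsp90b1, replicate 4 was at 2271 CPM in iCre IL-1β (others 1093 to 1105) and 2300 CPM in iCre TNFα (others 1038 to 1168). Replicate 4 of Pdia4 stood at 664 CPM in LacZ IL-1β (others 306 to 344), 649 CPM in iCre bFGF (others 269.7 to 309), 724 CPM in iCre IL-1β (others 284 to 307) and 713 CPM in iCre TNFα (others 241 to 316). In Pdia5 the replicate 4 value was 56.03 CPM in iCre TNFα (others 40.9 to 43.1). Pdia6 reached 528 CPM in iCre CTRL (others 251 to 286) and 929.9 CPM in iCre IL-1β (others 453 to 464) in replicate 4. For Dnajc3, replicate 4 was at 362 CPM in iCre IL-1β (others 215 to 233). Replicate 4 of Sdf2l1 stood at 66.9 CPM in LacZ IL-1β (others 27.6 to 30.6), 48.7 CPM in LacZ TNFα (others 15.7 to 21.1), 31.8 CPM in iCre CTRL (others 10.6 to 12.6), 72.2 CPM in iCre IL-1β (others 18.4 to 25.99) and 65.9 CPM in iCre TNFα (others 15.9 to 20.8). In Hyou1 the replicate 4 value was 577 CPM in iCre IL-1β (others 255 to 276). Creld2 reached 118 CPM in LacZ IL-1β (others 54.1 to 62.5), 90.4 CPM in LacZ TNFα (others 33.5 to 40.7), 64.4 CPM in iCre CTRL (others 29.2 to 31.5), 154 CPM in iCre IL-1β (others 58.3 to 67.3) and 159 CPM in iCre TNFα (others 53.5 to 69.99) in replicate 4. For Manf, replicate 4 was at 174 CPM in LacZ TNFα (others 86.9 to 98.2) and 308 CPM in iCre IL-1β (others 138 to 152). Replicate 4 of Syvn1 stood at 94.3 CPM in LacZ IL-1β (others 81.8 to 82.96). In Edem1 the replicate 4 value was 116 CPM in LacZ CTRL (others 93.7 to 95.2), 142 CPM in iCre CTRL (others 98.6 to 106) and 181 CPM in iCre IL-1β (others 114 to 120.4). Derl3 reached 2.48 CPM in LacZ bFGF (others 0.157 to 0.377), 3.12 CPM in LacZ IL-1β (others 0.298 to 0.534), 3.48 CPM in LacZ TNFα (others 0.203 to 0.525), 3.23 CPM in iCre CTRL (others 0.459 to 0.622), 3.69 CPM in iCre IL-1β (others 0.318 to 0.545) and 3.99 CPM in iCre TNFα (others 0.0509 to 0.136) in replicate 4. For Fkbp11, replicate 4 was at 11.7 CPM in LacZ CTRL (others 9.99 to 10.2), 11.3 CPM in iCre CTRL (others 7.82 to 8.20) and 33.3 CPM in iCre IL-1β (others 18.04 to 18.7).

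The remaining cases concerned the other replicates. Pdia5 in replicate 2 was the lowest of its group, at 32.5 CPM in LacZ CTRL (others 42.5 to 44.5). Canx in replicate 1 was the lowest of its group, at 813 CPM in iCre TGFβ (others 866 to 875). Atf6 in replicate 2 was the lowest of its group, at 69.6 CPM in LacZ bFGF (others 89.6 to 91.8). Syvn1 in replicate 2 was the highest of its group, at 134 CPM in LacZ TGFβ (others 113 to 116). Sec24d in replicate 1 was the highest of its group, at 259 CPM in LacZ TNFα (others 235 to 236). Creb3l1 in replicate 1 was the highest of its group, at 54.9 CPM in iCre TNFα (others 28.2 to 32.8).

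A ligand effect that differed between iCre and LacZ fibroblasts by the interaction test was found for 6 genes. The differences of log2 fold changes (iCre minus LacZ) were 0.74 for Pdia5, −0.61 for Canx, −0.78 for Dnajb9 and 0.74 for Fkbp11 with TGFβ, −0.61 for Dnajb9 with IL-1β, and 1.02 for Fkbp11, 0.82 for Sec61b and −1.20 for Creb3l1 with TNFα. After the GC correction Sec61b and Creb3l1 with TNFα passed and the others did not.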

How the results depend on the processing

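Counts of ER genes past the threshold depended most on the replicate block, which lost no call of the fits without it and changed none in direction, and with which 166 values newly passed. With the block, the LacZ counts were 25 for bFGF, 29 for IL-1β and 22 for TNFα, in iCre fibroblasts 26, 27 and 22, between iCre and LacZ 10 for CTRL, 10 for bFGF, 15 for TGFβ, 17 for IL-1β and 20 for TNFα, and for the interaction 6 with IL-1β and 13 with TNFα. Limma-voom with the block was chosen after seeing the data, because edgeR with the block made too many calls in data simulated without a replicate effect. By limma-voom with the block the counts were in the same order 25, 28, 23, 26, 28, 24, 8, 9, 14, 17, 20, 7 and 14. With the block and the GC correction they were 25, 30 and 22 in LacZ, 26, 26 and 25 in iCre, 10 for CTRL, 9 for bFGF, 14 for IL-1β and 14 for TNFα between iCre and LacZ, and for the interaction 0 for TGFβ, 7 for IL-1β and 9 for TNFα.

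The GC correction alone gave 7 genes with IL-1β and 6 with TNFα in iCre fibroblasts, and 0 between iCre and LacZ with TGFβ and 0 for the interaction with TGFβ. DESeq2 gave 5 with bFGF in iCre, 2 in CTRL, 1 with bFGF and 8 with TGFβ between iCre and LacZ, and 3 with IL-1β and 5 with TNFα for the interaction. One fit over all 40 libraries gave 4 with bFGF in iCre, 1 in CTRL and 1 with bFGF between iCre and LacZ, and 2 with TGFβ and 3 with IL-1β for the interaction. RLE factors gave 2 for the interaction with IL-1β, and filterByExpr gave 2 there and 6 between iCre and LacZ with TGFβ. The other counts, with no filter among them, stayed within 1.5 times. Beyond the shares given with the comparisons above, these counts stand without the share of all genes in the same fit. They cannot be set against all genes.

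Counting only values that passed with or without the alternative, directions changed in 4 cases. Dnajb9 between iCre and LacZ with TNFα was 0.03 with the GC correction and 0.035 with the block and GC correction. With the block and GC correction, Canx with IL-1β in iCre was 0.26 and Hsp90b1 between iCre and LacZ with TGFβ was 0.29.

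Leaving out each replicate number in turn gave 0 to 14 genes for bFGF, 30 to 31 for TGFβ, 10 to 25 for IL-1β and 1 to 6 for TNFα in LacZ fibroblasts, and 0 to 7, 28 to 31, 5 to 15 and 4 to 14 in iCre. Between iCre and LacZ it gave 0 to 3 for CTRL, 0 for bFGF, 1 to 4 for TGFβ, 0 to 4 for IL-1β and 3 to 9 for TNFα, and for the interactions 0 for bFGF, 1 to 5 for TGFβ, 0 to 2 for IL-1β and 0 to 5 for TNFα. Without replicate 3, no gene was called with bFGF with either virus, between iCre and LacZ with IL-1β, or for the interactions with IL-1β and TNFα. Without replicate 2 more genes were called in 8 comparisons and fewer in 3. With 3 libraries a group the tests hold fewer samples.

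The depth limited Derl3 alone, with 1 to 138 counts per library, and the other 32 genes held at least 240.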

Other observations

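The ER genes were also split at their median GC content of 50.6%, which left 16 genes below it and 17 at or above it. For TGFβ against CTRL the median log2 fold change was 1.11 below and 1.28 above in LacZ fibroblasts, and 1.02 below and 1.81 above in iCre fibroblasts. With IL-1β it was 0.61 and 0.63 in LacZ and 0.28 and 0.68 in iCre. Between iCre and LacZ with TGFβ it was −0.04 below and 0.23 above, and the 2 genes that were lower had a GC content below the median while the gene that was higher lay above it.

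In the PERK and ATF4 arm, replicate 4 deviated from the other libraries of its group by −0.13 (Cebpb) to 1.16 (Trib3) on the log2 scale over its 11 genes, averaged over the 10 groups. The 3 genes highest in replicate 4 in at least 8 groups were Atf3 (0.95), Ddit3 (0.68) and Eif2s1 (0.20), whereas Trib3 was highest in 7.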
